A study of Mus musculus and Homo sapiens with 8 samples.

Results

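The genes described here are Myc and 44 genes of ribosome biogenesis, 45 of the 13359 distinct genes in the deposited RNA-seq table. They were chosen by symbol, and all 45 were listed and were among the 12948 genes tested. Ribosomes are built in the nucleolus. RNA polymerase I makes a long precursor ribosomal RNA there, small nucleolar ribonucleoproteins (snoRNPs) guide its chemical modification, and successive assembly factors cut and fold it into the small (40S) and large (60S) subunits. The transcription factor Myc is known to drive many of these genes, and in the intestine Myc acts downstream of Wnt signalling and ribosome production is a mark of dividing crypt cells.

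The libraries came from small intestinal crypts of untreated C57BL/6 mice aged 2 months. The tested genotype, labelled APCmin+; Zmynd8IEC-/-, carries the Apc Min mutation together with deletion of Zmynd8, which encodes a chromatin reader, in the intestinal epithelium, and the comparison genotype, labelled APCmin+, carries Apc Min alone. There were 2 libraries of each, each a pool of RNA from 3 mice, and all mice therefore carry Apc Min, which truncates a brake on Wnt signalling and leads to intestinal adenomas. The labels name no Cre driver and do not say whether the APCmin+ mice carry a floxed Zmynd8 allele, nor how the pools of a genotype differ, and p-values therefore measure only the spread between pools, which may be technical. A further 4 ChIP-seq libraries of a human cell line were not analysed here.

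Values are FPKM, reads divided by gene length and by library size, and library totals lay between 44718091 and 48778712 reads. Zmynd8 itself had 7.30 and 7.65 FPKM in the libraries labelled knockout, against 6.94 and 4.73 FPKM in the Apc Min libraries, so the target gave no check of the labels and directions rest on them. Of 5 epithelial markers, 4 were lower without overlap, as were 48.5% of all genes tested, around a median of -0.35. Their sums were 4699 and 4549 FPKM in the libraries labelled knockout, against 5252 and 5889 FPKM in the Apc Min libraries. After median-ratio scaling 4 were still lower without overlap (28.3% of all genes tested), around a median of -0.18. Their scaled sums overlapped, and the part of these markers in the member values was not tested. Fold changes are differences in mean log2(FPKM + 1), tested with limma over all genes tested, and the median of all those genes was -0.15. Median-ratio scaling, which sets the typical gene equal between libraries, moved that median by 0.15, so member values are also given after it.

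All 45 genes had a negative log2 fold change, that is, lower values in the libraries labelled knockout, where 71.7% of all genes tested did. All 45 lay below the median of all genes tested. Their log2 fold changes ran from -0.65 for Ppan to -0.18 for Noc3l, with a median of -0.42, which is -0.26 from that of all genes and corresponds to 74.9% of the level in the Apc Min libraries on the log2(FPKM + 1) scale. In 43 of the 45 both libraries labelled knockout were below both Apc Min libraries, where 48.5% of all genes tested were, and in 0 were both above (14.9%). After median-ratio scaling all 45 fold changes stayed negative (51.3% of all genes tested), and their median was -0.28. Then 39 were lower without overlap, where 28.3% of all genes tested were, and 0 higher (27.9%).

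None of the 45 genes passed limma at an adjusted p under 0.05, a level that 0.131% of all genes tested passed downwards and 0.595% upwards. The smallest adjusted p was 0.0659, for Ppan. At an unadjusted p under 0.05 there were 35 lower and 0 higher, against 19.1% lower and 7.49% higher over all genes tested. After median-ratio scaling 19 were lower and 0 higher (8.28% and 12.1% of all genes tested), and with limma-voom on recovered reads 21 and 0 (9.1% and 12.2%). Neither gave a member an adjusted p under 0.05, which 0.0309% of all genes tested had downwards and 0.463% upwards after scaling, and 0.162% and 1.42% with limma-voom. The members' median relative to all genes was -0.22 without replicate 1 of the libraries labelled knockout, and -0.30 without replicate 2. Without Apc Min replicate 1 it was -0.29, and without Apc Min replicate 2 it was -0.27. Each member rested on 162 to 16711 reads per library.

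**Figure D1:**
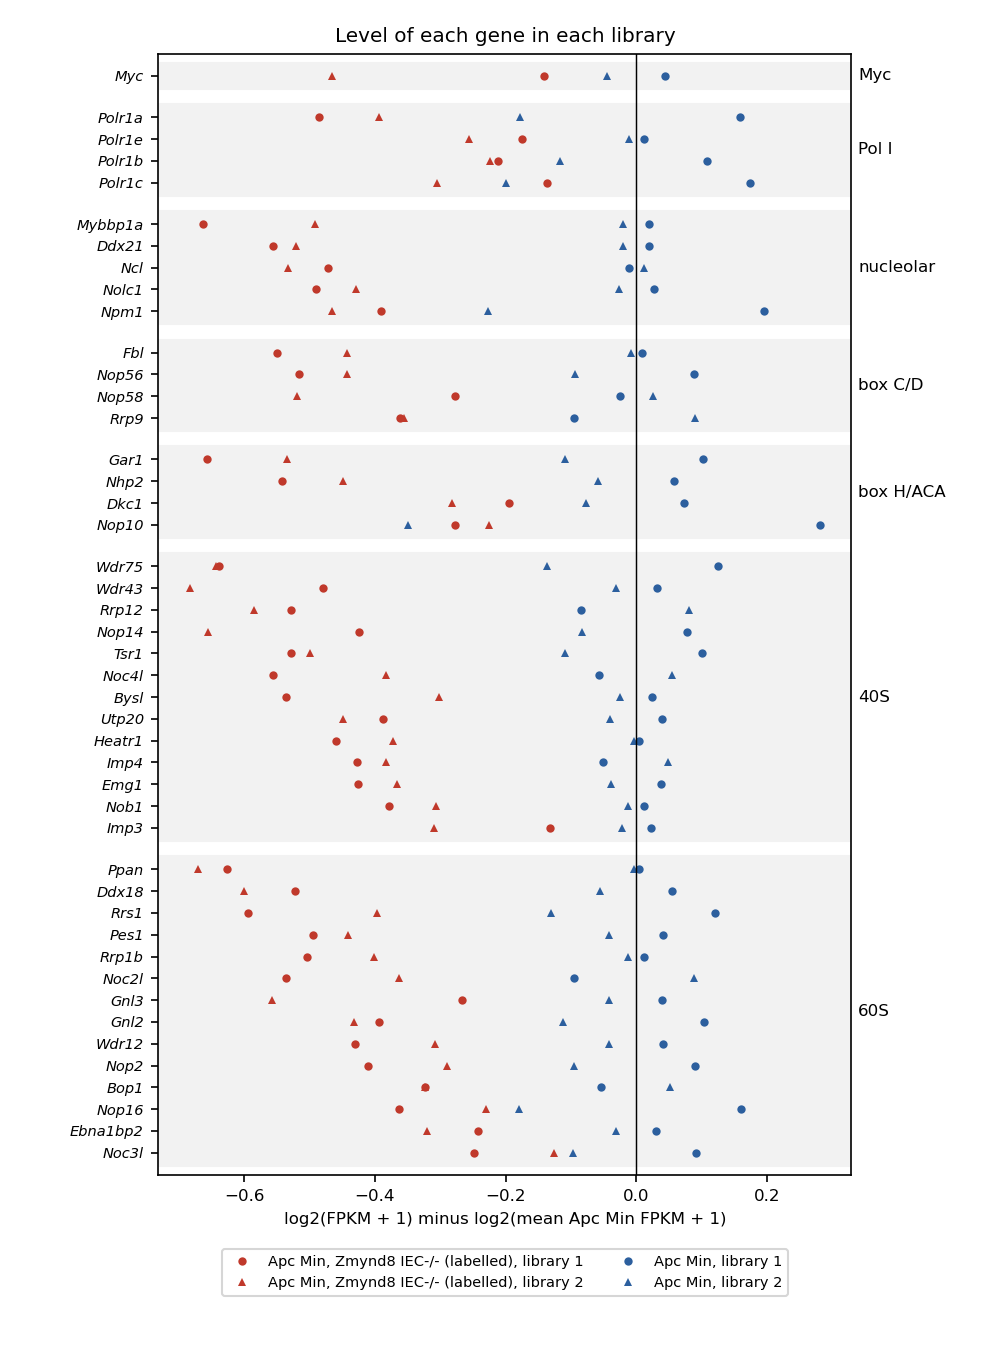
Level of each of the 45 genes in each library, as log2(FPKM + 1) minus the log2 of the Apc Min mean plus 1, with genes grouped by role. Red symbols (libraries labelled knockout) lie left of blue symbols (Apc Min) for 43 genes, and Nop10 and Polr1c are the exceptions.

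The difference between genotypes was larger than that between pools of a genotype. The median member difference in log2(FPKM + 1) was -0.50, -0.42, -0.48 and -0.39 over the 4 pairs of a library labelled knockout with an Apc Min library. It was -0.03 between the libraries labelled knockout (replicate 1 minus 2) and 0.08 between the Apc Min libraries (replicate 1 minus 2). Of the Apc Min pools, replicate 1 was the higher for 37 of 45 members as deposited, and the median of all genes was 0.08 higher there too. With median-ratio scaling 20 members were higher in replicate 1 and 25 lower. After median-ratio scaling the medians were -0.33, -0.34, -0.25 and -0.26 between genotypes, and -0.10 and -0.01 within them.

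**Figure D2:**
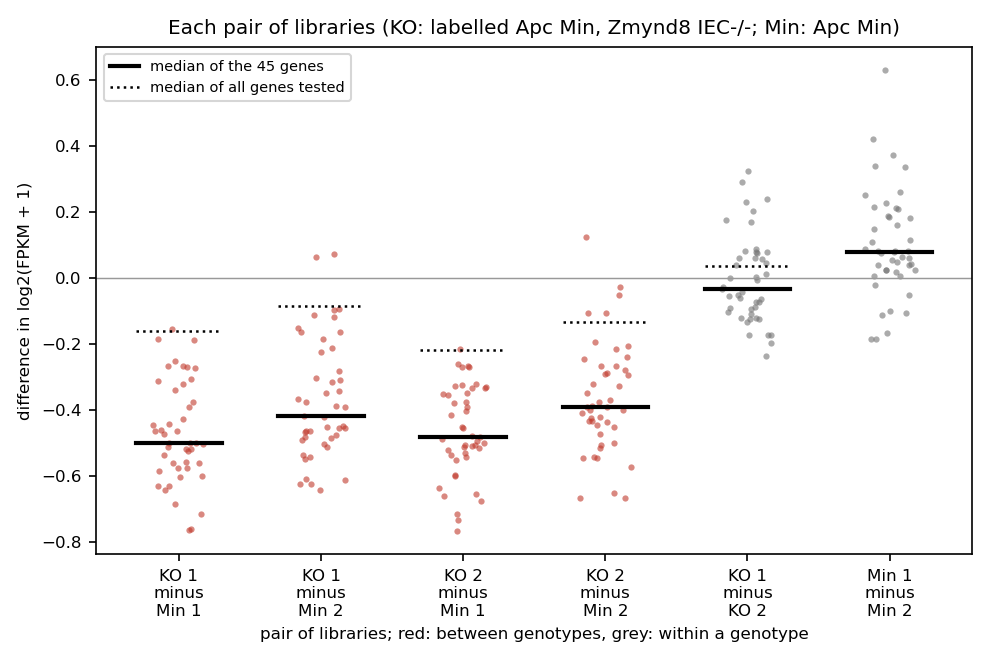
Differences in log2(FPKM + 1) of the 45 genes for each pair of libraries, with the median of the 45 genes (solid) and of all genes tested (dotted). The 4 between-genotype medians lie from -0.50 to -0.39, and the within-genotype medians at -0.03 and 0.08.

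Myc (gene 17869, chromosome 15, 61985341 to 61990361, plus strand, mm10) had 9.41 and 7.32 FPKM in the libraries labelled knockout, against 10.8 and 10.1 FPKM in the Apc Min libraries. The groups did not overlap, but the libraries labelled knockout differed from each other more than replicate 1 of them differed from either Apc Min library. Its fold change on the log2 scale was -0.30 (SE 0.14, with a 95% interval from -0.67 to 0.06 and a limma adjusted p of 0.237), and -0.15 after median-ratio scaling. It was -0.14 without replicate 2 of the libraries labelled knockout and -0.46 without replicate 1. Myc was thus closer to the median of all genes than most members were.

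Other members of the Myc network were mostly negative as deposited and mostly positive once libraries were scaled to the typical gene. Of 11 tested, 10 were negative as deposited (71.7% of all genes tested), around a median of -0.10. After median-ratio scaling 2 were negative (51.3% of all genes tested) and 9 positive, around a median of 0.05. Mycl, a Myc paralog, had 2.07 and 2.46 FPKM in the libraries labelled knockout and 6.49 and 4.13 FPKM in the Apc Min libraries (-0.93, SE 0.22, limma adjusted p = 0.105). Max, the obligate partner of Myc, had 79.1 and 78.8 FPKM in the libraries labelled knockout and 84.4 and 87.1 FPKM in the Apc Min libraries (-0.12, and 0.05 after median-ratio scaling). Mlxipl, which encodes the glucose-responsive factor ChREBP of the same protein family, had a positive value, with 37.3 and 42.3 FPKM in the libraries labelled knockout, against 21.4 and 24.5 FPKM in the Apc Min libraries (0.77, SE 0.12, limma adjusted p = 0.071). None of these passed the threshold.

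RNA polymerase I subunit genes showed the smallest median difference of the role groups, -0.21 for 4 genes, which is -0.06 from that of all genes. Polr1a, the largest subunit, had 2.72 and 2.96 FPKM in the libraries labelled knockout, against 4.81 and 3.60 FPKM in the Apc Min libraries (-0.43, SE 0.16, limma adjusted p = 0.181). Polr1b, the second largest subunit, had 3.27 and 3.23 FPKM in the libraries labelled knockout, against 4.33 and 3.56 FPKM in the Apc Min libraries (-0.21, SE 0.14). Both Polr1a and Polr1b were highest in Apc Min replicate 1. Polr1c, a subunit shared with RNA polymerase III, had 13.7 and 12.1 FPKM in the libraries labelled knockout, and 17.3 and 13.1 FPKM in the Apc Min libraries, so its groups overlapped (-0.21, SE 0.16). Polr1e, the least abundant of the 45, had 1.25 and 1.13 FPKM in the libraries labelled knockout, against 1.56 and 1.52 FPKM in the Apc Min libraries (-0.22, SE 0.13). After median-ratio scaling the 4 values were between -0.29 and -0.05.

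Abundant nucleolar proteins and helicases differed more, with a median of -0.50 for 5 genes. Ncl encodes nucleolin, which binds precursor ribosomal RNA and ribosomal DNA chromatin. It had 27.9 and 26.7 FPKM in the libraries labelled knockout, against 38.7 and 39.4 FPKM in the Apc Min libraries (-0.50, SE 0.09, limma adjusted p = 0.081). Ddx21, an RNA helicase that acts in ribosomal RNA transcription and processing, had 12.99 and 13.3 FPKM in the libraries labelled knockout, against 19.8 and 19.3 FPKM in the Apc Min libraries (-0.54, SE 0.09, limma adjusted p = 0.074). Mybbp1a, a nucleolar protein that binds Myb, had 14.5 and 16.5 FPKM in the libraries labelled knockout, against 23.96 and 23.3 FPKM in the Apc Min libraries (-0.58, SE 0.10, limma adjusted p = 0.081). For these 3 genes the Apc Min libraries were nearly level and the gap between genotypes was several times the gap within either.

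Npm1 encodes nucleophosmin, a histone and ribosome chaperone, and was the most abundant member. It had 104 and 98.7 FPKM in the libraries labelled knockout, against 157 and 117 FPKM in the Apc Min libraries (-0.41, SE 0.17, limma adjusted p = 0.194). Its Apc Min libraries lay further apart than replicate 2 of them lay from either library labelled knockout. Npm1 is known to have processed pseudogenes, so its reads could have been shared with copies. The chaperone gene Nolc1, known as Nopp140, gave -0.46 (SE 0.09, limma adjusted p = 0.094).

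The box C/D snoRNP, which methylates ribosomal RNA at sites chosen by guide RNAs, had a median of -0.44 over 4 genes. All 4 were lower without overlap, as were 48.5% of all genes tested. After median-ratio scaling all 4 still were, beside 28.3% of all genes tested. Its methyltransferase fibrillarin, Fbl, had 27.6 and 29.8 FPKM in the libraries labelled knockout, against 41.1 and 40.6 FPKM in the Apc Min libraries (-0.50, SE 0.09, limma adjusted p = 0.0896). The core scaffold genes Nop56 and Nop58 gave -0.48 and -0.40. Nop56 had 14.99 and 15.8 FPKM in the libraries labelled knockout, against 23.3 and 20.4 FPKM in the Apc Min libraries. Nop58 had 19.4 and 16.3 FPKM in the libraries labelled knockout, against 23.3 and 24.2 FPKM in the Apc Min libraries. The RNAs of this pair of core proteins thus had similar levels per length in the Apc Min libraries. Rrp9, a protein particular to the U3 snoRNP, gave -0.36 (SE 0.12).

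The box H/ACA snoRNP, which converts uridines to pseudouridine, was uneven around a median of -0.37 over 4 genes. Gar1 had 7.37 and 8.11 FPKM in the libraries labelled knockout, against 13.2 and 11.2 FPKM in the Apc Min libraries (-0.59, SE 0.12, limma adjusted p = 0.094). Nhp2 had 19.98 and 21.4 FPKM in the libraries labelled knockout, against 30.8 and 28.3 FPKM in the Apc Min libraries (-0.49, SE 0.10, limma adjusted p = 0.092). Dkc1, the pseudouridine synthase dyskerin, differed less, with 7.63 and 7.12 FPKM in the libraries labelled knockout, against 9.38 and 8.37 FPKM in the Apc Min libraries (-0.24, SE 0.11). Nop10, the smallest core protein, had 20.8 and 21.6 FPKM in the libraries labelled knockout, and 31.1 and 19.8 FPKM in the Apc Min libraries. Its groups overlapped, its fold change of -0.22 (SE 0.23) rested on Apc Min replicate 1, and without that library it was 0.10.

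**Figure D3:**
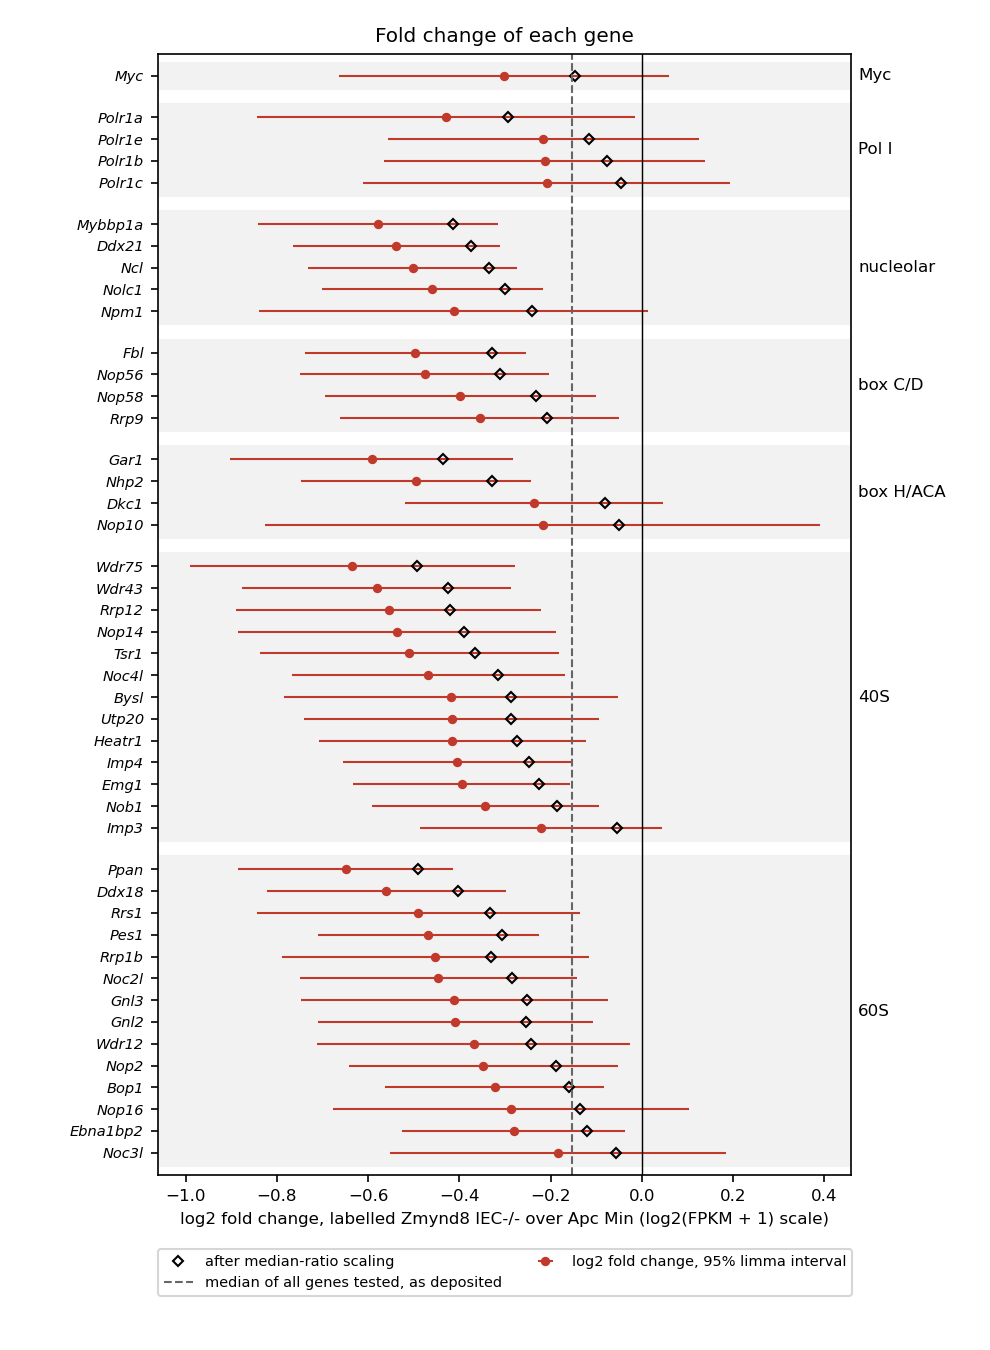
Log2 fold change (libraries labelled knockout over Apc Min) of each gene with its 95% limma interval, and the value after median-ratio scaling (open diamonds). All 45 points lie left of the median of all genes at -0.15 (dashed), and all 45 diamonds lie left of 0.

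Among the 13 genes of the small subunit processome and 40S maturation, 12 had an unadjusted p under 0.05 and none overlapped (19.1% and 48.5% of all genes tested were lower by these measures), around a median of -0.42. After median-ratio scaling 6 had such a p and 12 were lower without overlap (8.28% and 28.3% of all genes tested). The early-binding processome proteins Wdr43 and Wdr75 act where ribosomal RNA transcription and processing meet. Wdr43 had 8.21 and 7.00 FPKM in the libraries labelled knockout, against 12.1 and 11.6 FPKM in the Apc Min libraries (-0.58, SE 0.11, limma adjusted p = 0.091). Wdr75 had 3.30 and 3.29 FPKM in the libraries labelled knockout, against 6.30 and 5.10 FPKM in the Apc Min libraries (-0.63, SE 0.14, limma adjusted p = 0.098). Heatr1, of the same subcomplex, gave -0.42. Rrp12, which takes part in 40S export, had 2.81 and 2.66 FPKM in the libraries labelled knockout, against 4.18 and 4.81 FPKM in the Apc Min libraries (-0.56, SE 0.13, limma adjusted p = 0.106).

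The rest of the 40S group lay between -0.54 and -0.22. Nop14, a processome protein, and Tsr1, a late 40S factor, gave -0.54 and -0.51. Emg1, which methylates 18S ribosomal RNA, gave -0.40, and Nob1, the nuclease that forms the end of 18S ribosomal RNA, gave -0.34. Imp4 and Imp3, partners that bind the U3 RNA, differed in size, at -0.40 and -0.22. Imp3 had the value nearest 0, with 21.2 and 18.7 FPKM in the libraries labelled knockout, against 23.7 and 22.99 FPKM in the Apc Min libraries, and -0.06 after median-ratio scaling.

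The 14 genes of 60S assembly had a median of -0.41. Of these, 12 had an unadjusted limma p under 0.05 and none overlapped (19.1% and 48.5% of all genes tested were lower by these measures). After median-ratio scaling 5 had such a p and 12 were lower without overlap (8.28% and 28.3% of all genes tested). Ppan, a factor of early 60S precursors, had the most negative value and the smallest p of all members. It had 8.91 and 8.60 FPKM in the libraries labelled knockout, against 14.3 FPKM in both Apc Min libraries (-0.65, SE 0.09, 95% interval -0.88 to -0.41). Ddx18, a nucleolar RNA helicase, had 8.20 and 7.71 FPKM in the libraries labelled knockout, against 12.7 and 11.7 FPKM in the Apc Min libraries (-0.56, SE 0.10, limma adjusted p = 0.082). Both stayed at -0.40 or below after median-ratio scaling, Ppan at -0.49 and Ddx18 at -0.40.

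Pes1, Bop1 and Wdr12 form the PeBoW complex, which is needed to process 28S and 5.8S ribosomal RNA. Pes1 had 10.2 and 10.6 FPKM in the libraries labelled knockout, against 15.2 and 14.3 FPKM in the Apc Min libraries (-0.47, SE 0.09, limma adjusted p = 0.094). Bop1 and Wdr12 gave -0.32 and -0.37, and Wdr12 was the least abundant of the 3, with 2.05 and 2.32 FPKM in the libraries labelled knockout and 3.23 and 3.00 FPKM in the Apc Min libraries. Noc2l and Noc3l, which act as a pair in 60S export in yeast, differed in size, at -0.45 and -0.18. Noc3l had 2.33 and 2.63 FPKM in the libraries labelled knockout, against 3.22 and 2.70 FPKM in the Apc Min libraries, and was the member nearest the median of all genes. Of the GTPases Gnl2 and Gnl3 (nucleostemin), both gave -0.41, and the remaining genes of the group, Rrs1, Rrp1b, Nop2, Nop16 and Ebna1bp2, lay between -0.49 and -0.28.

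**Figure D4:**
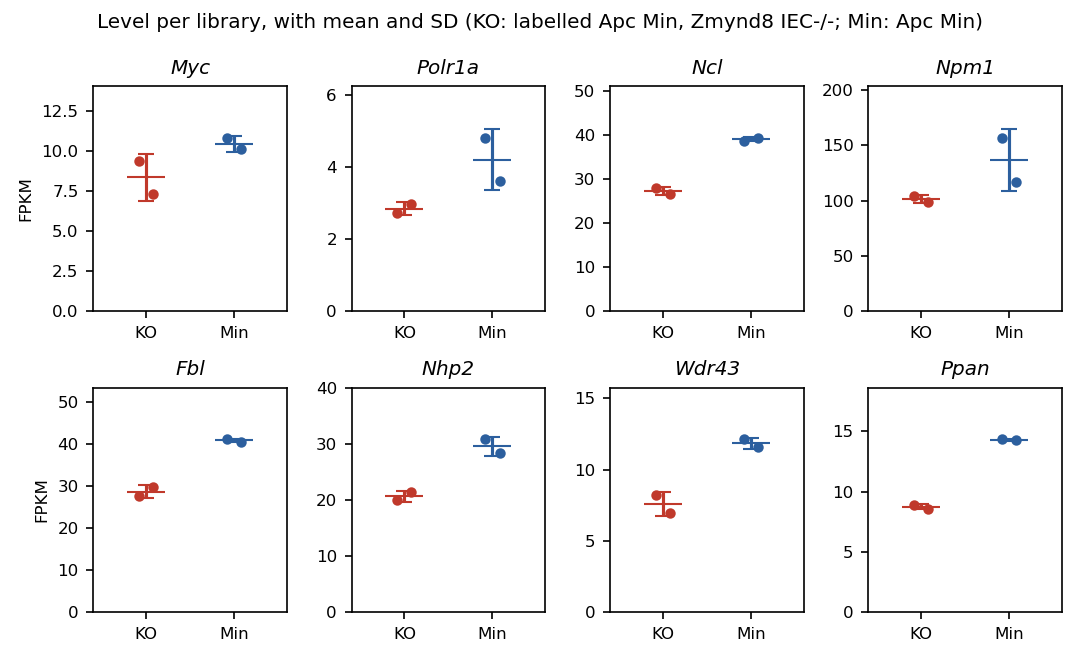
FPKM of 8 members in each library (points) with the mean and SD of 2 libraries per genotype, on axes that start at 0. Ncl, Fbl, Nhp2, Wdr43 and Ppan show a gap wider than either pair's spread, whereas Myc, Polr1a and Npm1 have 1 genotype whose libraries lie apart.

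The authors' deposited table gave all 45 members a q-value of 1, and its p-value was under 0.05 for 1 of them, Npm1 at 0.0322. Over its 13359 genes, the authors' deposited table had a p-value under 0.05 for 2.55% lower and 3.01% higher, and a q-value under 0.05 for 0.876% lower and 1.26% higher, so the members' share lay near the background. The sources used here do not name the test behind them. In the authors' deposited table the log2 fold changes of the group means were -0.71 for Ppan, -0.52 for Ncl and -0.33 for Myc.

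Ribosome biogenesis genes outside the 45, listed from textbook knowledge, had lower values too, with a smaller median. Of 111 tested, 104 were negative, their median was -0.32 (-0.16 from that of all genes), and 96 stayed negative after median-ratio scaling. By limma 0 passed the adjusted threshold (0 also with limma-voom), 55 were lower and 2 higher at an unadjusted p under 0.05 (19.1% and 7.49% over all genes). After median-ratio scaling 19 were lower and 2 higher (8.28% and 12.1% over all genes), and with limma-voom 23 were lower (9.1%). Mrto4, a factor of the 60S stalk, had 8.45 and 9.26 FPKM in the libraries labelled knockout, against 14.0 and 15.4 FPKM in the Apc Min libraries (-0.67, SE 0.11, limma adjusted p = 0.073). The nucleolar matrix gene Surf6 gave -0.69, and the exosome genes Exosc2 and Exosc9, of the complex that trims precursor RNA, gave -0.58 and -0.60. By family, the medians were -0.32 for 9 exosome genes, -0.30 for 8 Utp genes, -0.34 for 12 DEAD and DEAH box helicase genes, and -0.31 for 10 further RNA polymerase I subunit and factor genes, with 1 positive value among these 39, Ddx49 at 0.00, named after its value was seen. After median-ratio scaling 8, 7, 11 and 8 of them were negative.

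Other genes known as Myc targets, in polyamine and nucleotide synthesis, protein folding and RNA handling, were close to the members in size. Of 33 tested, 31 were negative, their median was -0.40 (-0.24 from that of all genes), and 30 were negative after median-ratio scaling. The limma count past the adjusted threshold was 0 (0 also with limma-voom), and 23 were lower at an unadjusted p under 0.05 (19.1% over all genes). After median-ratio scaling 12 were (8.28%), and with limma-voom 14 (9.1%). Pa2g4, a nucleolar growth regulator, had 33.2 and 33.6 FPKM in the libraries labelled knockout, against 49.6 and 53.3 FPKM in the Apc Min libraries (-0.61, SE 0.09, limma adjusted p = 0.072). Tfrc, the transferrin receptor, gave -0.53, and Prmt1, an arginine methyltransferase, gave -0.60.

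Genes for the cytosolic ribosomal proteins, the parts that these factors assemble, lay nearer the median of all genes. Of 78 tested, 77 were negative as deposited (71.7% of all genes tested), and their median was -0.23 (-0.08 from that of all genes). At an unadjusted limma p under 0.05, 10 were lower, and 59 were lower without overlap (19.1% and 48.5% of all genes tested). After median-ratio scaling 56 were negative (51.3% of all genes tested) around a median of -0.06. Then 0 were lower at such a p and 26 without overlap (8.28% and 28.3% of all genes tested), where 19 and 39 of the 45 members were. The difference between these lists was not tested. Rpl29 had the smallest p of the list and gave -0.52, with 88.4 and 108 FPKM in the libraries labelled knockout, against 138 and 142 FPKM in the Apc Min libraries. Many ribosomal protein genes have processed pseudogenes, so their reads could have been shared.

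**Figure D5:**
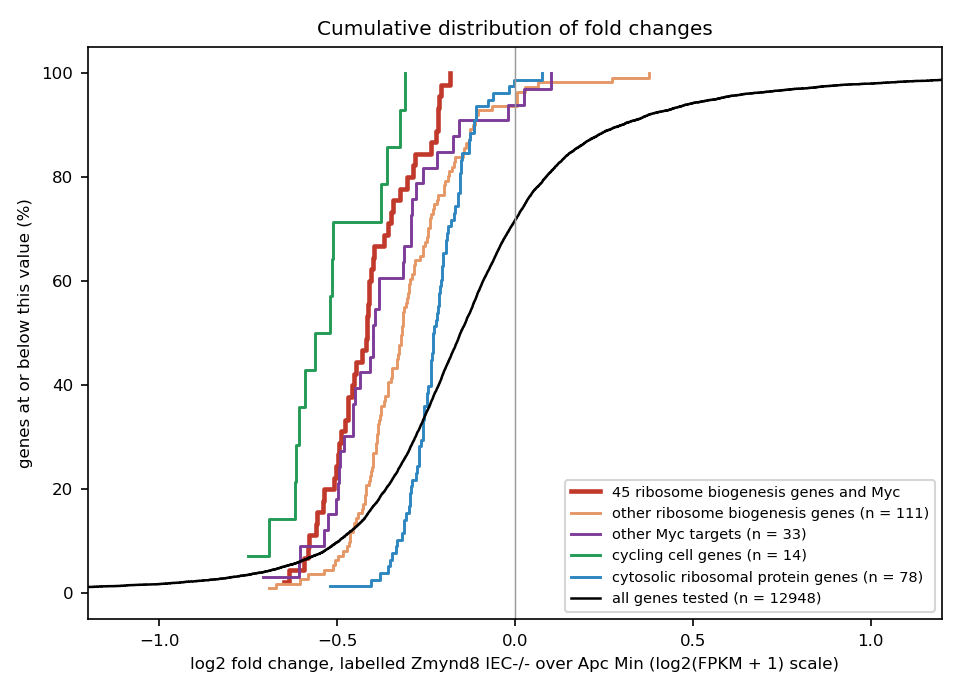
Share of genes at or below each log2 fold change (libraries labelled knockout over Apc Min), for the 45 genes, 4 other lists and all 12948 genes tested. The curve of the 45 genes (median -0.42) lies between those of cycling cell genes (-0.54) and of ribosomal protein genes (-0.23), and all 3 lie left of all genes (-0.15) at their medians.

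Markers of cycling cells had lower values, as the members did, and enterocyte markers had higher ones. All 14 cycling markers were negative, with a median of -0.54, and their summed level was 203 and 204 FPKM in the libraries labelled knockout, against 310 and 274 FPKM in the Apc Min libraries. The members summed to 538 and 534 FPKM in the libraries labelled knockout, against 774 and 695 FPKM in the Apc Min libraries. The summed member level was thus 2.65 and 2.61 times the cycling sum in the libraries labelled knockout, and 2.50 and 2.54 times it in the Apc Min libraries. It was 0.115 and 0.117 times the epithelial sum in the libraries labelled knockout, and 0.147 and 0.118 times it in the Apc Min libraries, where replicate 2 lay close to both libraries labelled knockout. On the log2(FPKM + 1) scale the genotypes overlapped. The member mean minus the epithelial mean was -5.98 and -5.89 in the libraries labelled knockout, and -5.92 and -5.95 in the Apc Min libraries. All 16 enterocyte markers were positive, where 3669 of 12948 genes tested were, with a median of 0.86. Of these, 3 were past the adjusted threshold (Slc2a2, Mme and Treh), which 0.595% of all genes tested passed upwards. Enterocyte sums were 23566 and 27246 FPKM in the libraries labelled knockout, against 14675 and 16714 FPKM in the Apc Min libraries. In bulk RNA of this kind fewer dividing cells in a pool and less of these RNAs per cell cannot be told apart, and the part of cell makeup in the member values was not tested.

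Markers of other crypt cells had mostly negative values. All 7 stem cell markers were negative, where 71.7% of all genes tested were, with 0 past limma's adjusted threshold (0 also with limma-voom). At an unadjusted limma p under 0.05, 4 were lower, and 3 after median-ratio scaling (19.1% and 8.28% of all genes tested). Their sums were 139 and 145 FPKM in the libraries labelled knockout, against 209 and 221 FPKM in the Apc Min libraries. All 6 Paneth cell markers were negative, 2 past the adjusted threshold (Mmp7 and Itln1), which 0.131% of all genes tested passed downwards. Their sums were 4454 and 6336 FPKM in the libraries labelled knockout and 7297 and 9552 FPKM in the Apc Min libraries. All 5 tuft cell markers tested were negative, 2 past the adjusted threshold, with sums of 3.81 and 2.85 FPKM in the libraries labelled knockout and 24.4 and 13.2 FPKM in the Apc Min libraries. Goblet cell markers were negative in 6 of 7, with sums of 7115 and 6350 FPKM in the libraries labelled knockout and 7450 and 8912 FPKM in the Apc Min libraries. As deposited none of these 4 sums overlapped between genotypes, but after median-ratio scaling those of Paneth and goblet cell markers did. Goblet cell markers, too, had 0 past limma's adjusted threshold (0 also with limma-voom). At an unadjusted limma p under 0.05, 2 of 7 were lower, and 2 after median-ratio scaling (19.1% and 8.28% of all genes tested). After that scaling all stem, Paneth and tuft cell markers tested stayed negative, and 5 of 7 goblet cell markers did (51.3% of all genes tested).

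Among 5 sums of markers of cells outside the epithelium, that of fibroblast and muscle markers did not overlap between genotypes as deposited, and it did after median-ratio scaling. Fibroblast and muscle markers summed to 291 and 262 FPKM in the libraries labelled knockout and to 304 and 360 FPKM in the Apc Min libraries. T cell markers summed to 41.3 and 33.0 FPKM in the libraries labelled knockout and to 35.5 and 42.7 FPKM in the Apc Min libraries, and B and plasma cell markers to 474 and 321 FPKM in the libraries labelled knockout and 404 and 424 FPKM in the Apc Min libraries. Sums of T cell, B and plasma cell, myeloid and endothelial markers overlapped, as did that of enteroendocrine markers. No marker in the table was at 0 in all libraries, and the symbols Pou2f3, Igj and Emr1 were not found in it. The part of these cells in the member values was not tested.

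The loci of the members were compared with those of other genes in 2 features that did not enter their selection. RefSeq places at least 1 snoRNA gene inside 8 of the 45 (17.8%), against 269 of 11540 protein-coding genes tested (2.33%), with 21 snoRNA genes in all. The hosts were Ncl (Snora75 and Snord82), Nop56 (Snord57 and Snord110), Nop58 (Snord11 and Snord70), Wdr43 (Snord53 and Snord92), Gnl3 (Snord19 and Snord69), Tsr1 (Snord91a), Dkc1 and Ppan, and snoRNAs known only by locus numbers are not named. The hosts had a median log2 fold change of -0.49 and the other 37 members of -0.42. The ranges overlapped, from -0.65 to -0.24 in hosts and from -0.63 to -0.18 in the others.

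The second feature was the E-box CACGTG, the site that Myc binds with Max. RefSeq promoter windows, from 250 bases before to 50 after a start that RefSeq gives, were at hand for 38 of the 45 members, and 7 of them (18.4%) held CACGTG, which reads the same on both strands, against 1040 of 8939 protein-coding genes tested (11.6%) and 8.09% of all genes in the promoter table. Sequences are shown for those 7 because they are the member windows with the site. The RefSeq start was the deposited table's gene start for 3 of the 7 and lay 19 bases from it for Nop2, 41 for Wdr43, 51 for Mybbp1a and 167 for Pes1. For Imp4 and Nop2, where the site lies before the RefSeq start, the 250 bases before that start are given, and for the other 5, where it lies after the RefSeq start, the site with up to 12 bases on either side. The Mybbp1a site lies before the start in the deposited table. Each is written 5′ to 3′ on the gene's strand with the site in capitals, and coordinates are GRCm38.p6.
Imp4 (chr1:34439579-34439828, plus): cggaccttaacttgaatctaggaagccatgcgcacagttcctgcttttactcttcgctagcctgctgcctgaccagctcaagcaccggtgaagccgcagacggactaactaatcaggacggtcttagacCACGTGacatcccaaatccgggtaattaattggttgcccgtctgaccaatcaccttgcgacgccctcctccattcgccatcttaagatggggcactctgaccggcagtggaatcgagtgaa
Nop2 (chr6:125131633-125131882, plus): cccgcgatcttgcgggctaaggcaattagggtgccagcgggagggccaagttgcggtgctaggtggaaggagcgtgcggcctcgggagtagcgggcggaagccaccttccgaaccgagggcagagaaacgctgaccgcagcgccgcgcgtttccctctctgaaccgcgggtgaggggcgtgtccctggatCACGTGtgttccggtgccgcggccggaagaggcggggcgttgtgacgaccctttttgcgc
Pes1 (chr11:3963965-3963994, plus): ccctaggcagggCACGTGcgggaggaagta
Wdr43 (chr17:71616220-71616249, plus): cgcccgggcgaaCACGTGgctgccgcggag
Tsr1 (chr11:74898092-74898121, plus): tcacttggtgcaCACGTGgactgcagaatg
Mybbp1a (chr11:72441355-72441376, plus): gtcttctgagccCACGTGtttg
Utp20 (chr10:88826765-88826789, minus): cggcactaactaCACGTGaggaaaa
These 7 genes had log2 fold changes from -0.58 to -0.35 with a median of -0.47, and the 31 members whose windows lacked the site had values from -0.65 to -0.18 with a median of -0.42. The ranges overlapped, and the difference between these sets was not tested. Both Ppan, with the most negative value, and Noc3l, with the least negative, were among those without the site in this window.

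The sources do not state whether reads were counted by strand, and 8 members that overlap a listed gene on the opposite strand are therefore uncertain: Nop56, Dkc1, Nhp2, Emg1, Bysl, Tsr1, Bop1 and Gnl3. Such overlaps were about as common elsewhere, at 17.8% of the 45 members and 15.1% of 11540 protein-coding genes tested. Dkc1 overlaps Mpp1 and Emg1 overlaps Lpcat3. The other 37 members were all negative, with a median of -0.42.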

How the data were processed

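RNA-seq of 2 libraries labelled APCmin+; Zmynd8IEC-/- and 2 labelled APCmin+ was used. Per the labels' protocols, libraries were made with an NEBNext Ultra RNA kit and run as paired ends on a HiSeq3000. Tools named in the submitters' processing notes are HISAT2, BWA and SICER, with builds mm10 and hg38, and no roles. The counting tool, the annotation and strand use: not given in the sources used here.

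The authors deposited 1 expression value per gene and library, group means, and columns for the log2 fold change, p-value and q-value, per the file headers, which name no unit. The deposited library values were read as FPKM because 1 length per gene and 1 total per library turned them into whole reads, within 0.002 reads, for 13359 of 13359 genes. Of 13527 entries, 168 were exact repeats and were dropped. Per-sample columns left unused numbered 0.

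Genes reaching 1 FPKM in 2 or more libraries entered a limma fit (version 3.58.1, R 4.3.3) of log2(FPKM + 1), with genotype as the only term, trend and robust moderation, and 95% intervals. Residual degrees of freedom were 2. P-values were adjusted by Benjamini-Hochberg over all 12948 genes, with a threshold of 0.05. Scripts were tested on simulated data. Alternatives were other pseudocounts, filters and scalings, limma without trend, limma-voom on the recovered reads, leaving out each library and a replicate block. The members, lists and tests were chosen with earlier results of these data known, so no count here is independent support. Statistics in full go to Myc and, in each role group, to the 3 members of smallest p and the one with the most positive value, and other lists may have the 4 genes of smallest p named. Sequences and snoRNA positions are RefSeq's, GRCm38.p6.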

Additional observations from a re-analysis of the deposited data

How the results depend on the processing

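Every member tested had a negative log2 fold change under every alternative, except Nop10 without Apc Min replicate 1. Nop10 ran from -0.53 to 0.10 over the fits that left out 1 library, and the filter at a mean of 5 FPKM tested 33 members. No member passed the adjusted threshold under any of them, and the smallest adjusted p ran from 0.0516 to 0.461. The members' median relative to all genes ran from -0.32 (limma-voom) to -0.22 (without replicate 1 of the libraries labelled knockout), and Myc from -0.46 to -0.14. In the fits that kept every library, members lower at an unadjusted p under 0.05 numbered from 19 to 35. The background moved too. Of 12948 genes tested, 1072 were lower at this level with median-ratio scaling, which gave 19 members. In the main fit, which gave 35 members, 2477 were. Calls over all genes, 77 higher and 17 lower, were far less stable: 1 and 0 with no filter on low values, 2 and 0 at the filter of a mean of 5 FPKM, 60 and 4 with median-ratio scaling, 61 and 5 with quantile normalization, 41 and 9 for limma without trend, and 184 and 21 for limma-voom. Leaving out 1 library in turn gave from 0 to 230 higher and from 0 to 386 lower, where the lone library of a genotype is assumed to vary like the other pair. The titles do not say whether replicate numbers pair libraries across genotypes. Deviations of same-numbered libraries correlated at 0.0452 across 12948 genes, which are not independent, and this value alone cannot exclude a pairing. The replicate block gave 0 higher and 0 lower calls over all genes. With it 32 members were lower at an unadjusted limma p under 0.05, as were 2245 of the 12948 genes tested. With the looser motif CANNTG, 60.5% of the 38 members with a window matched, against 68.0% of protein-coding genes tested that had one.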

Other observations

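Among the 111 other ribosome biogenesis genes, 7 had positive values. Of these, Eif6, Sbds and Efl1, singled out after their values were seen, act late on the 60S subunit in the cytoplasm. The values of Sbds and Efl1 were near 0, as were those of Nsa2, Ddx49 and Rrp36, at 0.03, 0.004 and 0.004. Eif6, which keeps the subunits apart until 60S maturation ends, had 142 and 153 FPKM in the libraries labelled knockout, against 119 and 124 FPKM in the Apc Min libraries (0.27, SE 0.10, limma adjusted p = 0.184). Sbds and Efl1, which together release Eif6, gave 0.01 and 0.07, and 0.18 and 0.22 after median-ratio scaling. Sdad1, a nucleolar 60S export factor, gave 0.38 (limma adjusted p = 0.152), and it and Eif6 were the genes higher at an unadjusted p under 0.05. The cytoplasmic release GTPase Lsg1 and the export adaptor Nmd3 had negative values, -0.45 and -0.18. None passed the adjusted threshold.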
